A study of Homo sapiens with 24 samples.

Results

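The 7 genes described here encode the myosin chains whose isoforms mark the chambers of the heart: the heavy chains MYH6, MYH7 and MYH7B, the regulatory light chains MYL2 and MYL7, and the essential light chains MYL3 and MYL4. They were chosen by name, as the rows of the count table that carry these symbols. All 7 were found among 62757 genes and passed the filter on low counts, MYL2 through its VM libraries alone. The table held 24 bulk RNA libraries from HES3, a human embryonic stem cell line, differentiated toward heart muscle as embryoid bodies, which are floating clusters of cells. Every group carried the same reporter alleles, GFP at NKX2-5 and mCherry at NR2F2. Every group had also been edited with CRISPR-Cas9: the groups labelled LHX2, ZNF503 and ZNF711 at the named gene, and the control group at TRAC, a T cell receptor gene. Each of the 4 genotypes was grown in 2 conditions, labelled AM and VM. The labels do not spell these out. They are read here as the atrial protocol, with retinoic acid at day 4, and the ventricular protocol without it, both with Wnt modulation for at most 14 days. Each of the 8 groups had 3 libraries, numbered 1 to 3, and total counts per library ran from 2899786 to 7438010. The labels do not say that the replicates came from separate cultures or clones, so p-values measure only the spread between these libraries, which may be technical.

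A sarcomeric myosin molecule joins a pair of heavy chains, which hold the motor, with a regulatory and an essential light chain on each neck. MYH6 encodes the fast alpha heavy chain that prevails in human atria, and MYH7 the slower beta heavy chain that prevails in human ventricles. MYH7B encodes a further sarcomeric heavy chain. MYL7 (atrial) and MYL2 (ventricular) are the regulatory light chains, and MYL4 (atrial, and fetal ventricle) and MYL3 (ventricular) the essential ones. Early heart tube cells express several of these isoforms side by side, and the ventricular regulatory light chain MYL2 accumulates as ventricular cells mature.

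On GRCh38, MYH6 (ENSG00000197616) lies at chr14:23381990-23408277 and MYH7 (ENSG00000092054) beside it at chr14:23412738-23435718, both on the minus strand. MYH7B (ENSG00000078814) lies at chr20:34975403-35002437 on the plus strand. The light chain genes are spread out: MYL2 (ENSG00000111245) at chr12:110910819-110920722 (minus), MYL3 (ENSG00000160808) at chr3:46857872-46882169 (minus), MYL4 (ENSG00000198336) at chr17:47200446-47223679 (plus) and MYL7 (ENSG00000106631) at chr7:44138864-44141332 (minus). Each heavy chain gene carries a microRNA inside an intron. These are shown because their mature forms tie the 3 heavy chain genes together: those hosted by MYH6 and MYH7 share the same seed, bases 2 to 8, through which a microRNA pairs with its targets, and the one hosted by MYH7B has a closely related seed. The sequences are from RefSeq (GRCh38.p14), 5′ to 3′, with the seed in capitals.
hsa-miR-208a-3p, in MYH6: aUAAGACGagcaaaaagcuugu
hsa-miR-208b-3p, in MYH7: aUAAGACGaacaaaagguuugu
hsa-miR-499a-5p, in MYH7B: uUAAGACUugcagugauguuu
The counts of these hairpin genes do not measure the mature forms. MIR208A had 0 to 15 counts per library and 140 in all, MIR208B 3 in all, in 1 library, and MIR499A 6 in all.

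RefSeq promoter windows, of 300 bases around an annotated start, were matched for 3 of the 7 genes: MYH6, MYL3 (with 2 starts) and MYL7. They are shown because only these 3 members had such windows. Their levels moved together across the libraries of a condition: Pearson r over 12 libraries, of log2 CPM (a gene's counts scaled to library size with TMM normalization), was 0.961 in AM and 0.922 in VM for MYH6 with MYL3, 0.947 and 0.880 for MYL3 with MYL7, and 0.912 and 0.792 for MYH6 with MYL7. This was not particular to them: MYL4, without a window, had r of 0.913 and 0.893 with MYH6, 0.903 and 0.985 with MYL3, and 0.956 and 0.932 with MYL7. The libraries share depth, scaling and replicate number, so this is a description. Capitals mark matches, on either strand, to the letters GATA (the core of GATA factor sites), TATAAA (the TATA box), GGAATG (M-CAT, bound by TEAD factors), AGGTCA (a nuclear receptor half-site), AGGTGT (a T-box half-site) and the CArG box, bound by SRF. The MEF2 site, also searched, had no match in them and is in 0.572% of all such windows. The windows are on the minus strand, at chr14:23408224-23408523 for MYH6, chr7:44141283-44141582 for MYL7 and chr3:46861635-46861934 for the second start of MYL3, which lies inside the gene. The window at the first start of MYL3 held 1 GATA match alone and is not shown.
MYH6: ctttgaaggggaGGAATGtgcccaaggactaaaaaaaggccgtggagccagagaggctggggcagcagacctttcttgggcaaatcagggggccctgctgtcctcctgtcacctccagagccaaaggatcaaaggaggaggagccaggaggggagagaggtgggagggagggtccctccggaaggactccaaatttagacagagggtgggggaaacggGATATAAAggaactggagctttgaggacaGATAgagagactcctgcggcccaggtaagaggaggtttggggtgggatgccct
MYL7: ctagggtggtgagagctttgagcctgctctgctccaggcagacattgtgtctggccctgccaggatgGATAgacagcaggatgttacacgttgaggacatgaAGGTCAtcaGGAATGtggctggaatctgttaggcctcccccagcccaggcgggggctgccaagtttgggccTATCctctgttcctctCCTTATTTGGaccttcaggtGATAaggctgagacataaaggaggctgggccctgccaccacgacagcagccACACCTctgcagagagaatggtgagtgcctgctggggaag
MYL3, second start: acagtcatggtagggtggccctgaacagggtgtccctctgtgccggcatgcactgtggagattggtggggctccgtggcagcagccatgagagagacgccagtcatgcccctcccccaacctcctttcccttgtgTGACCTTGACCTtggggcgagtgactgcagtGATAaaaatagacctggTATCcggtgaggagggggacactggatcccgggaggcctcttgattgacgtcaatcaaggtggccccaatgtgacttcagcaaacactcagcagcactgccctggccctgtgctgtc
The MYL7 window held 3 GATA matches and 1 each of the nuclear receptor half-site, M-CAT, the T-box half-site and the CArG box. The MYL3 window held 2 AGGTCA matches side by side and 2 of GATA, and the MYH6 window 2 of GATA, 1 of which overlaps TATAAA, and 1 of GGAATG. Of 35116 RefSeq promoter windows of this length, 49.7% held GATA, 14.0% GGAATG, 13.8% AGGTCA, 11.5% TATAAA, 11.4% AGGTGT and 1.29% a CArG box. A match is a stretch of letters and not a bound site.

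The labelled cell type, cardiomyocyte, was checked on 8 genes that heart muscle cells of either chamber express (TNNT2, TNNC1, ACTN2, ACTC1, TPM1, MYOZ2, LDB3 and NEBL): all 8 had counts in both conditions, and they summed to 4334 to 7841 CPM in AM and 4385 to 9765 CPM in VM. Other cell types were present too. The 10 fibroblast markers summed to 8873 to 13369 CPM in AM and 7270 to 17048 in VM, with none at 0 throughout. Of these 10, 4 were called higher in AM than in VM in TRAC, 5 in LHX2, 4 in the ZNF503-labelled libraries and 1 in ZNF711, where 1 was also lower (edgeR). Over all genes tested, 6.18%, 4.68%, 4.77% and 6.81% were called higher in that order, and 6.42% lower in ZNF711. The median log2 fold changes of the list were 1.11, 1.06, 0.84 and 0.04, while all 7 myosins were below 0 in the first 3 genotypes and 5 of 7 above 0 in ZNF711. Of 10 endothelial markers, 4, 1, 5 and 2 were called higher in AM in the same order and 0 lower. The part of these cell types in the differences of the myosins between AM and VM was not tested. The 10 endoderm and hepatic markers summed to 234 to 2116 CPM in AM and 1572 to 26201 in VM, with the highest sum of each group in the library numbered 3. RNA levels of the genes in the genotype labels gave little check of the editing, whose positions are not given in the sources used here. LHX2 had 0 to 34 counts and TRAC 0 to 19 in any library. ZNF503 was at 296 ± 60.6 CPM (SD, n = 3) in the AM ZNF503-labelled libraries and 112 ± 9.80 in AM TRAC, and at 35.6 ± 14.3 in those labelled VM ZNF503 and 13.2 ± 3.91 in VM TRAC. That is higher, not lower, than in the control, so these groups are called ZNF503-labelled. ZNF711 was at 42.6 ± 12.3 CPM in AM ZNF711 against 54.2 ± 6.48 in AM TRAC and at 30.8 ± 4.31 in VM ZNF711 against 39.9 ± 6.96 in VM TRAC. None of these differences from TRAC was called by edgeR.

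MYH6 had the highest counts of the 7 genes in both conditions. By mean CPM it ranked number 4 of all genes in the AM libraries and number 5 in the VM libraries, and it held 0.301% to 1.36% of all counts of a library. Per kilobase of all annotated exons, a scale on which genes can be compared, its mean level was 1139 ± 172 CPM per kb in AM TRAC and 1480 ± 691 in VM TRAC (SD, n = 3). In VM TRAC the order below it was MYL7 (803 ± 169 CPM per kb), MYL4 (309.9 ± 122), MYL3 (252 ± 98.6), MYH7 (90.4 ± 3.48), MYH7B (13.4 ± 4.49) and MYL2 (1.89 ± 1.41). In AM TRAC it was MYL7 (399 ± 196), MYL4 (235 ± 41.3), MYL3 (133 ± 29.2), MYH7 (8.81 ± 7.83) and MYH7B (7.85 ± 0.902), with MYL2 at 0.0441 ± 0.0763 from 1 count. By these means MYH6, MYL7 and MYL4 stood above their ventricular partners MYH7, MYL2 and MYL3 in both conditions. The MYH7 mean of AM TRAC lay above that of MYH7B through replicate 3 alone, with MYH7 at 4.67, 3.91 and 17.8 and MYH7B at 8.51, 6.82 and 8.22 CPM per kb, and per kilobase of the principal transcript MYH7B was the higher, at 9.90 against 8.81. The MYH6 and MYL7 libraries of VM TRAC overlapped per kilobase of exons, and per kilobase of the principal transcript their order turned, with MYL7 at 1914 and MYH6 at 1618 CPM per kb in VM TRAC, but 950.4 and 1244 in AM TRAC. The plot of levels per library shows all 7 genes, each on its own axis.

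**Figure D1:**
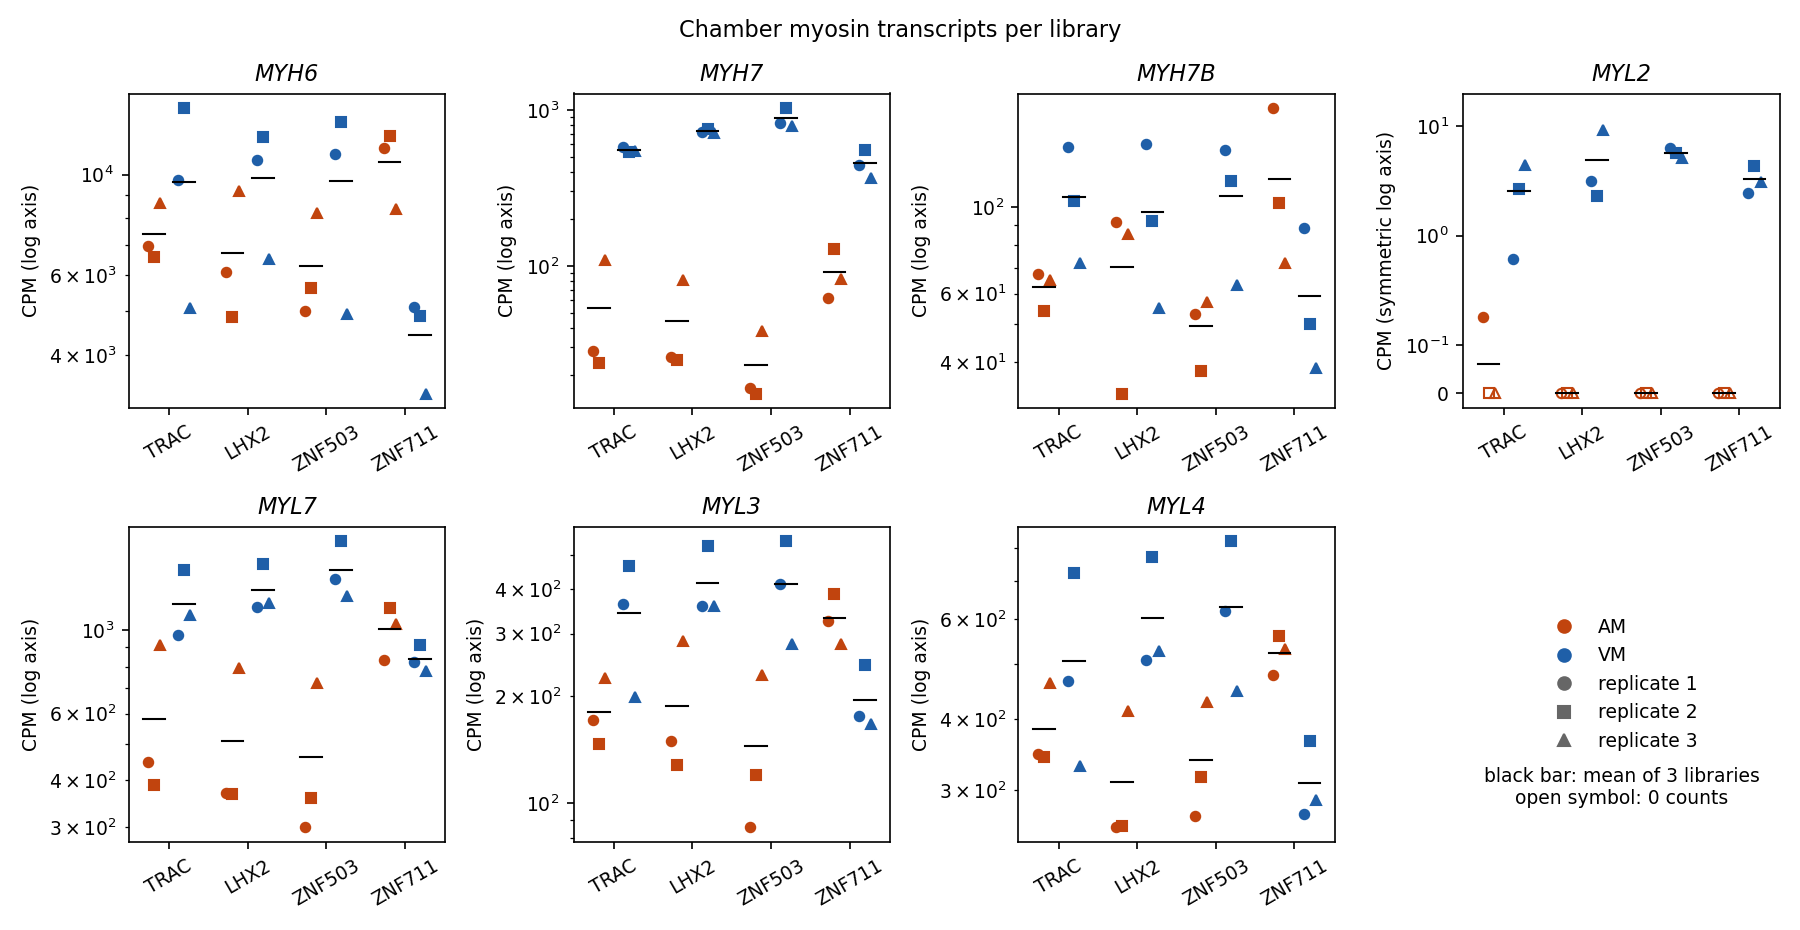
Level of each of the 7 genes in CPM (vertical log axis; symmetric log for MYL2) in the 24 libraries by genotype, with AM in orange and VM in blue; symbols give the replicate number, black bars the mean of 3 libraries, open symbols 0 counts. MYH7 lies between 15.1 and 129 CPM in AM and between 366 and 1031 CPM in VM, while the MYH6 ranges of AM and VM overlap.

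MYH7, the beta heavy chain, was the member that separated AM from VM most clearly among those with counts in every library. In AM TRAC it was at 28.4, 23.8 and 109 CPM in replicates 1, 2 and 3, and in VM TRAC at 574, 534 and 543 CPM. In AM LHX2 it was at 26.2, 24.97 and 81.6 CPM and in VM LHX2 at 718, 758 and 713 CPM. In the AM ZNF503-labelled libraries it was at 16.4, 15.1 and 38.3 CPM and in those labelled VM ZNF503 at 821, 1031 and 793 CPM. In AM ZNF711 it was at 62.3, 129 and 82.2 CPM and in VM ZNF711 at 444, 550.2 and 366 CPM. All 12 VM values lay above all 12 AM values, and the nearest pair of values was 129 and 366 CPM. MYH7 was lower in AM in each genotype, with log2 fold changes of −3.36 (SE 0.55, edgeR adjusted p 0.000462) in TRAC, −4.02 (SE 0.57, 0.000133) in LHX2, −5.24 (SE 0.60, 1.38e-05) in the ZNF503-labelled libraries and −2.31 (SE 0.52, 0.00684) in ZNF711. None of the 15 alternative fits per genotype ended these calls. In bulk RNA, fewer cells of a type and less RNA per cell cannot be told apart, here and in every comparison below.

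MYH6, the alpha heavy chain, did not follow MYH7. In AM TRAC it was at 6950.4, 6564 and 8663 CPM in replicates 1, 2 and 3, and in VM TRAC at 9725, 14037 and 5069 CPM. The VM TRAC values thus spread over both sides of the AM TRAC values. In AM LHX2 it was at 6106, 4844 and 9182 CPM and in VM LHX2 at 10766, 12118 and 6526 CPM. In the ZNF503-labelled libraries it was at 5002, 5611 and 8242 CPM in AM and at 11088, 13036 and 4923 CPM in VM. In these 3 genotypes the groups overlapped, and the log2 fold changes of −0.38, −0.55 and −0.62 were not called (edgeR adjusted p 0.580, 0.421 and 0.357). In ZNF711 the order was the other way: MYH6 was at 11436, 12179 and 8412 CPM in AM ZNF711 and at 5109, 4865 and 3285 CPM in VM ZNF711. These groups did not overlap, as for 32.9% of all genes tested, and MYH6 was called higher in AM (log2 fold change 1.27, SE 0.36, edgeR adjusted p 0.0205). That call was lost when AM ZNF711 replicate 1 or 2 or VM ZNF711 replicate 2 or 3 was left out, with adjusted p of 0.0616, 0.0787, 0.0540 and 0.110. Without the libraries numbered 3 in all groups, MYH6 was called lower in AM in TRAC, LHX2 and the ZNF503-labelled libraries (log2 fold changes −0.81, −1.06 and −1.18, edgeR adjusted p 0.0142, 0.00188 and 0.000589) and higher in ZNF711 (1.22, 0.000488), as before.

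The 2 heavy chains are neighbours on chromosome 14 with similar coding sequence, so the counting could split some of their reads. Of the 50-base windows of the main MYH6 transcript, 14.8% occur in MYH7 too, and of the 100-base windows 5.29%; the main transcripts of the other members share none with another gene. The MYH7 counts in AM were a small share of the 2 genes' counts, so reads from MYH6 could make up part of them, and the size of that part was not tested. An annotated antisense gene that touches a MYH7 exon (ENSG00000258444) had 57 counts in all 24 libraries. PTH1R, on the other strand across an upstream exon of MYL3, had 146 to 463 counts per library, and TRPC4AP, at the end of MYH7B, 400 to 1210. Whether strand was used in counting is not given in the sources used here.

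As a ratio within each library, which does not depend on the scaling of libraries, MYH6 over MYH7 was 79.8 to 371 in AM and 6.21 to 26.3 in VM. In TRAC, the ratio of counts was 244, 276 and 79.8 in AM replicates 1, 2 and 3 and 16.9, 26.3 and 9.33 in VM. In LHX2 it was 233, 194 and 112 in AM and 15.0, 16.0 and 9.15 in VM. In the ZNF503-labelled libraries it was 305, 371 and 215 in AM and 13.5, 12.6 and 6.21 in VM, and in ZNF711 184, 94.5 and 102 in AM and 11.5, 8.84 and 8.99 in VM. No AM library fell as low as any VM library, and in all 12 pairs of the same genotype and number the AM library was higher. Over the 4 genotypes the mean log2 ratio was 3.91 higher in AM, a 15.0-fold difference (two-sided exact permutation test within genotype, p = 1.25e-05, the smallest that 160000 arrangements can give; 1.88e-05 adjusted over the 3 ratios tested). That test does not pair libraries by number. With signs flipped within the 12 pairs instead, the exact p was 0.000488, the smallest that 4096 arrangements can give. Put as a share, MYH7 held 0.269% to 1.24% of MYH6 plus MYH7 counts in AM and 3.66% to 13.9% in VM. For VM TRAC replicate 1 the exact Clopper-Pearson 95% interval of that share was 5.38% to 5.78%, narrower than the VM TRAC range of 3.66% to 9.68%. In AM TRAC the intervals of replicates 1 and 2 overlapped, at 0.347% to 0.476% and 0.306% to 0.423%. Those of replicates 1 and 2 also overlapped in AM LHX2 and the AM ZNF503-labelled libraries, and those of replicates 2 and 3 in VM ZNF711. The library numbered 3 had the lowest MYH6/MYH7 ratio in 3 of 4 AM groups and 3 of 4 VM groups.

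**Figure D2:**
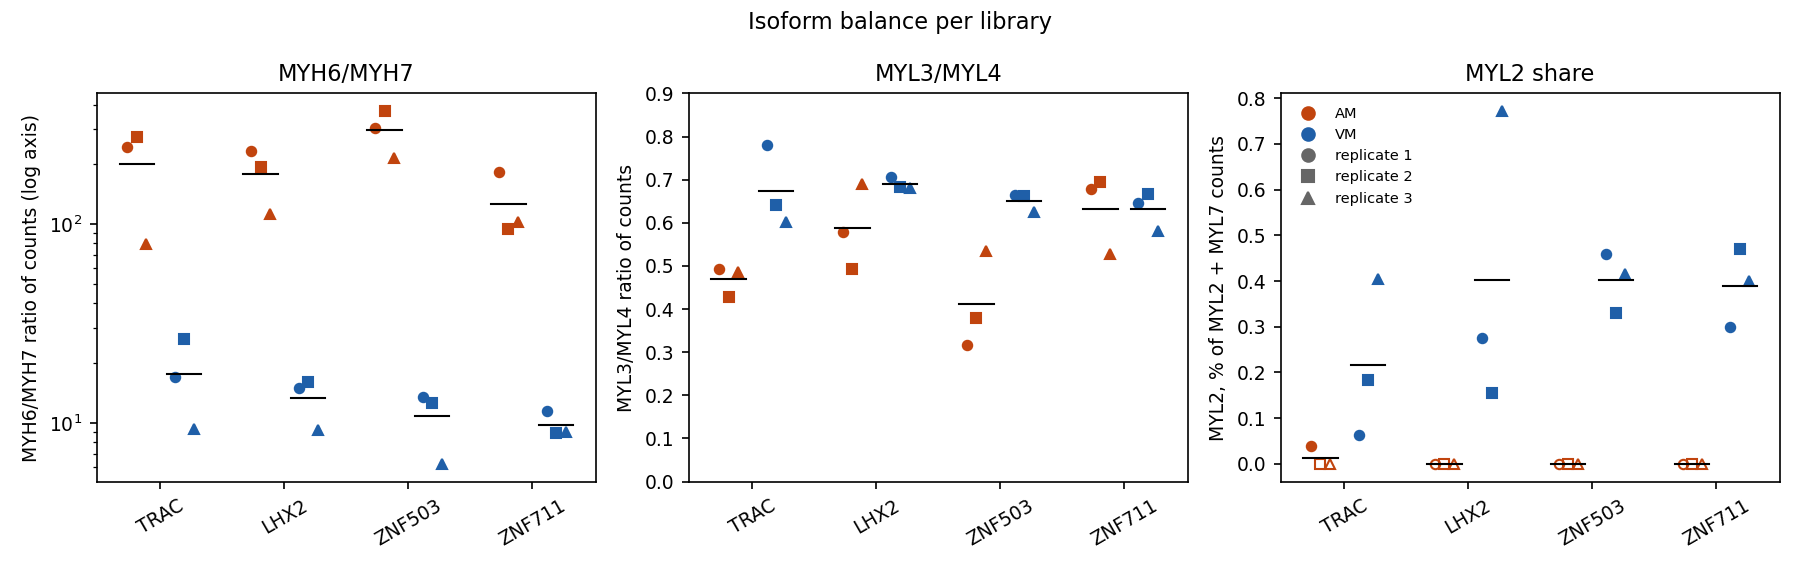
Ratio of MYH6 to MYH7 counts (log axis), ratio of MYL3 to MYL4 counts and MYL2 as a percentage of MYL2 plus MYL7 counts, per library, with AM in orange, VM in blue, symbols for the replicate number and black bars for the mean of 3 libraries. MYH6/MYH7 is at least 79.8 in AM and at most 26.3 in VM, MYL3/MYL4 overlaps, and the MYL2 share is 0 in 11 of 12 AM libraries.

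MYH7B, the remaining heavy chain, was low in both conditions. Its range was 33.2 to 179.8 CPM over the 12 AM libraries (median 66.4) and 38.7 to 145 CPM over the 12 VM libraries (median 90.3). In TRAC the groups did not overlap, as for 26.1% of all genes tested, at 67.5, 54.1 and 65.2 CPM in AM and 143, 103 and 71.9 in VM. The log2 fold change of −0.77 (SE 0.44) was not called there (edgeR adjusted p 0.323). It was −0.48 in LHX2, −1.11 in the ZNF503-labelled libraries and 1.004 in ZNF711 (edgeR adjusted p 0.617, 0.158 and 0.155). With a replicate block within each condition it was called in the ZNF503-labelled libraries, at −1.28 (edgeR adjusted p 0.0181), and with those 2 groups fitted alone at −1.12 (0.0294).

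MYL2, the ventricular regulatory light chain, was nearly absent from AM and rare in VM. In AM TRAC it had 1, 0 and 0 counts in replicates 1, 2 and 3, and the 9 AM libraries of the other genotypes had 0. A count of 0 allows up to 0.517 to 0.766 CPM per library on average in these groups, taking 3 counts as the limit. VM TRAC had 3, 13 and 30 counts, VM LHX2 17, 11 and 46, the VM ZNF503-labelled libraries 27, 28 and 24, and VM ZNF711 10, 23 and 15. The highest level was 9.18 CPM, in VM LHX2 replicate 3. With its 46 counts in 3 libraries, MYL2 was 48.8-fold higher in VM TRAC than in AM TRAC (95% counting interval 8.32 to 1967). Against the floor of 3 counts over the matching AM group, MYL2 was 20.1-fold higher in VM LHX2, 32.3-fold in the VM ZNF503-labelled libraries and 15.5-fold in VM ZNF711. These values set a limit for AM alone and leave out the counting error of VM, so they are not lower bounds. MYL2 was called lower in AM in all 4 genotypes (edgeR adjusted p 0.00393 in TRAC, 0.000913 in LHX2, 0.000292 in the ZNF503-labelled libraries and 0.00160 in ZNF711). Because it passed the filter on low counts through VM libraries alone, these calls restate the counts and are not separate support. In TRAC the call was lost with a replicate block within each condition (edgeR adjusted p 0.187) and without the libraries numbered 3 (0.0783), and in LHX2 it was lost with that block (0.0537).

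MYL7, the atrial regulatory light chain, was abundant in both conditions and, in 3 of 4 genotypes, at higher values in VM. In AM TRAC it was at 447, 387 and 910.1 CPM in replicates 1, 2 and 3, and in VM TRAC at 969, 1446 and 1098 CPM. These groups did not overlap, as for 26.1% of all genes tested, and the log2 fold change of −1.01 (SE 0.34) missed the threshold (edgeR adjusted p 0.0578). It was called with the replicate block (edgeR adjusted p 0.0344), with DESeq2 (−1.03, 0.0479) and without AM TRAC replicate 3 (−1.48, edgeR adjusted p 0.00780). In AM LHX2 it was at 369, 367 and 792 CPM and in VM LHX2 at 1148, 1495 and 1180 CPM. In the ZNF503-labelled libraries it was at 300.1, 359 and 723 CPM in AM and at 1368, 1718 and 1229 CPM in VM. In both, every VM library was above every AM library, where 23.9% (LHX2) and 23.5% (ZNF503 label) of all genes tested had separate groups. MYL7 was lower in AM, by −1.32 in LHX2 (SE 0.34, edgeR adjusted p 0.0165) and −1.64 in the ZNF503-labelled libraries (SE 0.34, 0.00309). The LHX2 call was lost without AM LHX2 replicate 1 or 2 or VM LHX2 replicate 2 (0.0989, 0.103 and 0.0718). In ZNF711 the groups overlapped, at 830.1, 1144 and 1038 CPM in AM and 822, 914 and 779 CPM in VM (0.26, SE 0.33, edgeR adjusted p 0.678).

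Even in VM the ventricular form was a trace of the regulatory light chains. MYL2 held 0.0631% to 0.772% of the MYL2 plus MYL7 counts in the 12 VM libraries, with a median of 0.365%. In the 11 AM libraries without a MYL2 count, the limit of 3 counts allows shares of up to 0.0526% to 0.260%, and the 1 count of AM TRAC replicate 1 was a share of 0.0402%. Of the 12 pairs of the same genotype and number, 12 had the lower MYL2/MYL7 ratio in AM (two-sided exact permutation test within genotype, p = 1.25e-05, the smallest these arrangements can give). MYL2 passed the filter on low counts through VM libraries alone, so this order and p-value restate the counts and are not separate support. In the closest pair, TRAC replicate 1, the exact 95% intervals of the share overlapped, at 0.00102% to 0.224% in AM and 0.0130% to 0.184% in VM. The mean log2 difference of −4.02 depends on the 0.5 counts added to each count, since nearly all AM counts are 0.

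The essential light chains MYL3 (ventricular) and MYL4 (atrial and fetal) were closer to each other. MYL3 was at 172, 147 and 225 CPM in AM TRAC and at 364, 464 and 199 CPM in VM TRAC, where replicate 3 lay inside the AM range. MYL4 was at 348, 343 and 462 CPM in AM TRAC and at 467, 723 and 331 CPM in VM TRAC, again with VM TRAC replicate 3 lowest. Neither difference was called in TRAC (MYL3 −0.92, edgeR adjusted p 0.128; MYL4 −0.40, 0.393). With a replicate block within each condition both were called lower (−1.09, 0.0440, and −0.44, 0.0489), as they were without the libraries numbered 3 (−1.38, 0.000344, and −0.78, 0.0331). In LHX2, MYL4 was lower in AM (−0.96, SE 0.27, edgeR adjusted p 0.0245) and MYL3 was at −1.14 (0.0665). MYL3 was called there with the replicate block within each condition (−1.42, edgeR adjusted p 0.0159), with only these 2 groups fitted (−1.14, 0.0398), with DESeq2 (−1.15, 0.0348), without AM LHX2 replicate 3 (−1.58, edgeR adjusted p 0.0190) and without the libraries numbered 3 in all groups (−1.68, 5.31e-05). For the label ZNF503, MYL3 and MYL4 were both lower in AM (−1.51, SE 0.38, edgeR adjusted p 0.0147, and −0.90, SE 0.26, 0.0341). These 3 calls were each lost on leaving out 1 library: the MYL4 call in LHX2 without AM LHX2 replicate 1 or 2 or VM LHX2 replicate 2 (0.126, 0.130 and 0.146), the MYL3 call without AM ZNF503 replicate 1 or 2 or VM ZNF503 replicate 2 (0.0852, 0.0807 and 0.0768), and the MYL4 call in ZNF503 without AM ZNF503 replicate 1 or 2 or VM ZNF503 replicate 1 or 2 (0.166, 0.133, 0.0816 and 0.192). The MYL3 call in ZNF503 was also lost with only those 2 groups fitted (0.0591), and the MYL4 call there with scaling to library size (0.0510). In ZNF711 the values were 324, 389 and 280.4 CPM in AM against 176, 244 and 167 in VM for MYL3, and 478, 559.7 and 532 in AM against 272, 366 and 288 in VM for MYL4. Both pairs of groups were separate, with AM above VM, where 32.9% of all genes tested had separate groups. Neither was called (0.76, edgeR adjusted p 0.198, and 0.76, 0.0596). Fitted without the other groups both were called higher (0.77, 0.00411, and 0.77, 0.00149). MYL4 was also called with the replicate block within each condition (0.68, edgeR adjusted p 0.00261), with DESeq2 (0.75, 0.0308) and with scaling to library size (0.82, edgeR adjusted p 0.0413), and MYL3 without the libraries numbered 3 in all groups (0.74, edgeR adjusted p 0.0414).

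The ratio of MYL3 to MYL4 counts was below 1 in every library. Its range was 0.317 to 0.694 for AM and 0.581 to 0.780 for VM. In AM TRAC it was 0.494, 0.429 and 0.486 and in VM TRAC 0.780, 0.642 and 0.601, without overlap. In the ZNF503-labelled libraries it was 0.317, 0.380 and 0.535 in AM and 0.666, 0.662 and 0.624 in VM, also without overlap. In LHX2 (0.579, 0.493 and 0.691 in AM, 0.707, 0.684 and 0.681 in VM) and ZNF711 (0.678, 0.694 and 0.527 in AM, 0.646, 0.666 and 0.581 in VM) the conditions overlapped. Over the 4 genotypes the mean log2 ratio was −0.37 in AM relative to VM, 0.776-fold, with 9 of 12 pairs lower in AM (two-sided exact permutation test within genotype, p = 0.00106, adjusted over the 3 ratios 0.00106). With signs flipped within the 12 pairs instead, the exact p was 0.00439. The MYL3/MYL4 difference was small beside that of MYH6/MYH7.

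**Figure D3:**
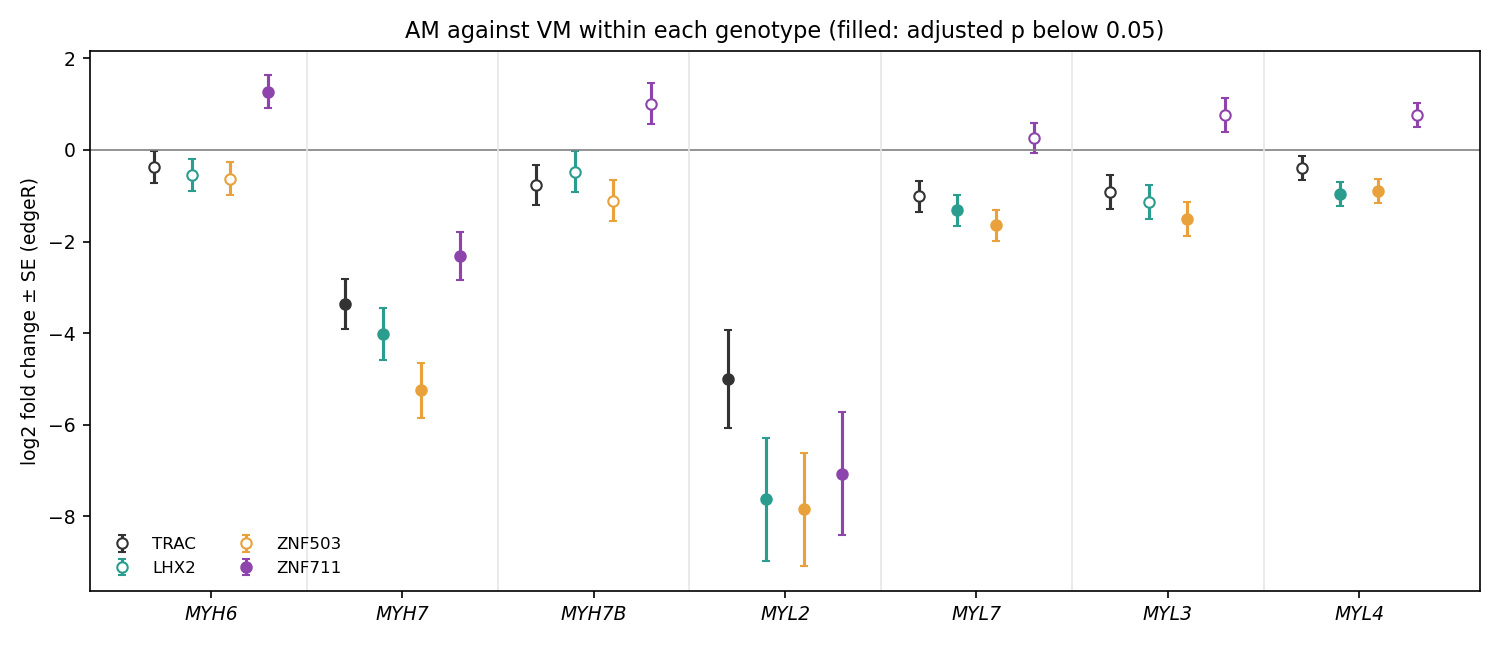
Fitted log2 fold change of AM against VM with its standard error (edgeR) for each of the 7 genes in 4 genotypes; filled points have an adjusted p below 0.05. MYH7 and MYL2 are below 0 and called in all 4 genotypes, and the other 5 genes lie below 0 in TRAC, LHX2 and ZNF503 and above 0 in ZNF711.

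In counts, AM TRAC had 2 of the 7 genes called lower and 0 higher, where 5.12% of the 17724 genes tested were called lower and 6.18% higher. With the replicate block 3 of 7 were called, where 19.4% of all genes were. LHX2 had 4 lower and 0 higher (3.88% and 4.68% of all genes), the ZNF503-labelled libraries 5 lower and 0 higher (4.1% and 4.77%), and ZNF711 2 lower and 1 higher (6.42% and 6.81%). The median log2 fold change of the 7 genes was −0.92, −1.14, −1.51 and 0.76 in these genotypes, and over all genes tested −0.03, 0.00, −0.00 and 0.00. With library size as the only scaling, the share of higher calls among all called genes went from 54.7% to 65.9% for LHX2, while for the ZNF503-labelled libraries it went from 53.8% to 64.7%.

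A single test per gene over the 4 genotypes, in which AM and VM were permuted within genotype and p-values adjusted over all 17724 genes, called MYH7, MYL2 and MYL7 lower in AM. The mean differences of log2 CPM were −3.91 (adjusted p 0.000183), −3.27 (0.000183) and −0.998 (0.00488) by exact permutation; 16.4% of all genes were called lower and 17.4% higher. MYL3 was at −0.72 (adjusted p 0.0530), MYL4 at −0.35 (0.204), MYH7B at −0.32 (0.413) and MYH6 at −0.02 (0.962) by the same exact permutation test. MYH7 and MYL2 were also called in the 3 such tests that each left out 1 replicate number. For MYL2, which passed the filter on low counts through VM libraries alone, these calls restate the counts and are not separate support. The size of its difference depends on the prior count of 2. MYL7 was not called without replicate 1 (−0.88, adjusted p 0.0627) or replicate 2 (−0.77, 0.0705).

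The level of cardiomyocyte genes itself differed between the conditions, and its part in these differences was not tested. The mean log2 CPM of the 8 reference genes was 0.84 lower in AM over the 4 genotypes (log2 difference −0.84, two-sided exact permutation test, p = 0.000563; 9 of 12 pairs lower). It was −0.94 in TRAC, −1.13 in LHX2, −1.48 in the ZNF503-labelled libraries and 0.17 in ZNF711 (exact permutation p 0.1, 0.1, 0.1 and 0.2 within a genotype, where 0.1 is the smallest possible). With each library scaled to these 8 genes, the median of all genes moved to 0.85, and 72.6% of all genes were called higher in AM and 1.98% lower. On that scale MYH7 was at −3.07 and MYL2 at −2.42, both called lower (adjusted p 0.000148 and 0.000282, exact permutation). For MYL2, with 1 count in all AM libraries, this call restates the counts, and its value depends on the prior count of 2. MYL7 and MYL3 were at −0.15 and 0.13 and were not called (0.206 and 0.264). MYH6 at 0.83, MYH7B at 0.52 and MYL4 at 0.49 were called higher (adjusted p 0.000148, 0.0161 and 0.00039, exact permutation), below the median of all genes. The sign of MYH7B, MYL3 and MYL4 thus depends on what the libraries are scaled to, as does that of MYH6, which was at −0.02 on the main scale. MYH7 and MYL2 were called lower on both scales. MYL7 was below 0 on both, but its value relative to the reference genes was not called.

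**Figure D4:**
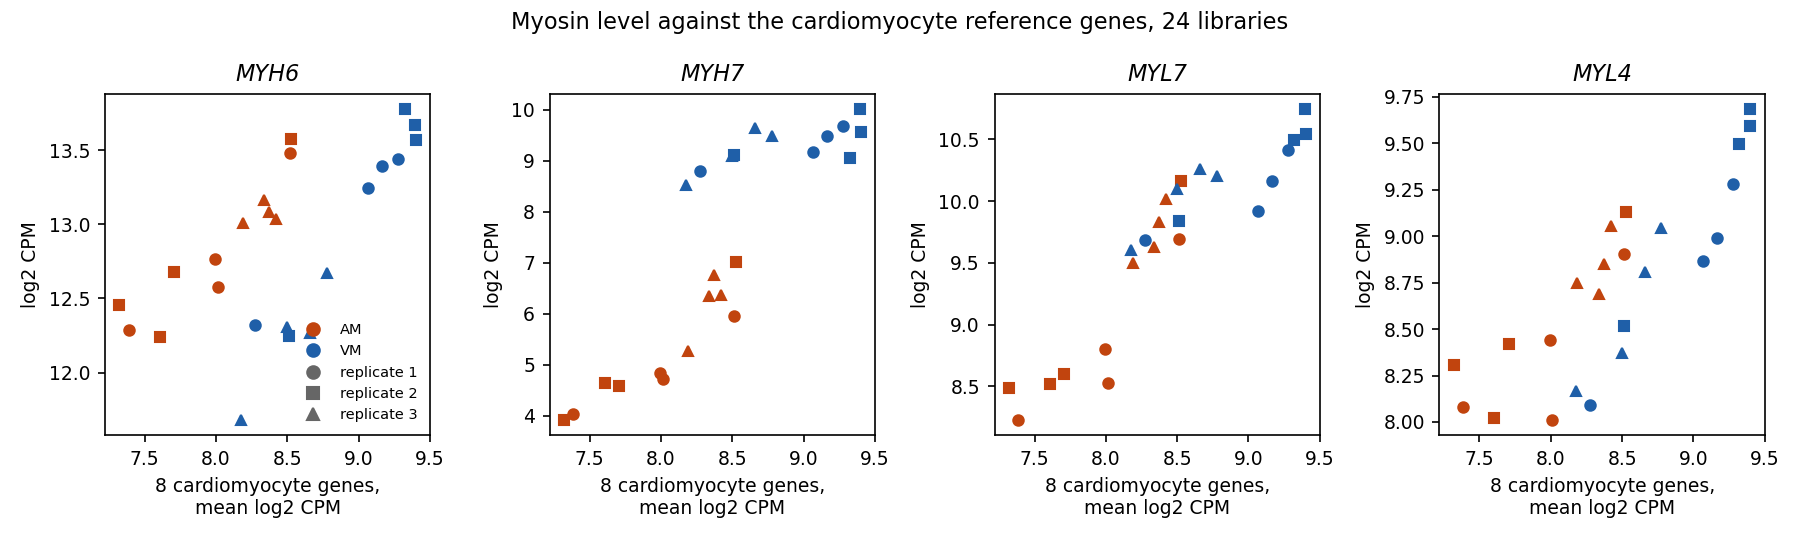
Level of MYH6, MYH7, MYL7 and MYL4 (log2 CPM) against the mean log2 CPM of 8 cardiomyocyte genes in the 24 libraries, with AM in orange and VM in blue and symbols for the replicate number. MYL7 follows much the same course in both conditions, MYH6 in AM lies above the VM libraries at the same reference level, and MYH7 forms a lower AM cloud and an upper VM cloud.

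The replicate number moved with the myosins, differently in AM and in VM. In VM, the library numbered 3 had the lowest MYH6 and MYH7B of its group in 4 of 4 genotypes and the lowest MYL3 and MYH7 in 3 of 4. In AM, it had the highest MYH6, MYH7, MYL3, MYL4 and MYL7 in 3 of 4 genotypes, all but ZNF711. The reference genes did the same: their mean log2 CPM in replicates 1, 2 and 3 was 7.99, 7.71 and 8.37 for AM TRAC, while for VM TRAC it was 9.06, 9.32 and 8.50. The endoderm and hepatic markers summed to 3587, 3165 and 25010 CPM in VM TRAC replicates 1, 2 and 3 and to 2822, 2757 and 17163 CPM in the VM ZNF503-labelled libraries. They were at 2278, 1572 and 9557 CPM in VM LHX2 and at 9701, 18372 and 26201 CPM in VM ZNF711, where replicates 1 and 2 were already above those of the other VM groups. The part of these cells in the VM values was not tested.

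Targeting of LHX2, or the label ZNF503, came with no called change of any of the 7 genes in either condition. The 4 comparisons used the same 3 TRAC libraries within a condition, so they are not independent. In AM LHX2 the log2 fold changes of the members other than MYL2 ran from −0.31 to 0.17, and 0 of 7 groups were separate from AM TRAC, where 0% of all genes were called and 19% had separate groups. In VM LHX2 they ran from −0.12 to 0.41 (0% called; 5.12% separate). MYH7 was the 1 member with separate groups there, at 713 to 758 CPM against 534 to 574 CPM in VM TRAC, a log2 fold change of 0.41 (SE 0.49, edgeR adjusted p 0.9999). In the AM ZNF503-labelled libraries the values ran from −1.20 to −0.18 (0% called; 8.55% separate), with MYH7 lowest (SE 0.54, edgeR adjusted p 1) and overlapping. In those labelled VM ZNF503 they ran from 0.01 to 0.68 (0% called; 4.3% separate), and the groups of MYH7 (793 to 1031 CPM) and MYL2 (5.14 to 6.30 CPM against 0.612 to 4.46) were separate from VM TRAC (0.68, SE 0.49, and 1.12, SE 0.69, both edgeR adjusted p 1). By group mean, MYH7 thus had the order VM ZNF503, VM LHX2, VM TRAC, VM ZNF711, AM ZNF711, AM TRAC, AM LHX2 and AM ZNF503, in which VM ZNF503 lay apart from VM LHX2 and VM LHX2 from VM TRAC, VM TRAC overlapped with VM ZNF711, VM ZNF711 lay apart from AM ZNF711, and each AM group overlapped with the next. At an unadjusted p below 0.05, 0 of 7 members passed in AM LHX2, VM LHX2 and VM ZNF503 (7.74%, 2.61% and 1.55% of all genes did) and 1 in AM ZNF503 (1.74%), and DESeq2 called 0 in each.

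In the ZNF711 libraries the differences from TRAC had a different sign in each condition. In AM ZNF711, the 6 members other than MYL2 had log2 fold changes of 0.45 to 0.93 against AM TRAC: MYH6 0.53, MYH7 0.77, MYH7B 0.93, MYL3 0.87, MYL4 0.45 and MYL7 0.79. In VM ZNF711 the same 6 were at −1.12 to −0.28 against VM TRAC: MYH6 −1.12 (SE 0.36), MYH7 −0.28 (SE 0.49), MYH7B −0.84 (SE 0.45), MYL3 −0.81 (SE 0.37), MYL4 −0.71 (SE 0.26) and MYL7 −0.48 (SE 0.33). None was called (edgeR adjusted p 1 throughout in AM and from 0.280 in VM), while 0% of all genes were called in AM and 0.0169% in VM. At an unadjusted p below 0.05, 2 of 7 passed in AM (3.49% of all genes did) and 3 in VM (9.4%), and DESeq2 called 0 in both. MYH7B, MYL3 and MYL4 had groups separate from AM TRAC (11.7% of all genes did), and MYL7 from VM TRAC (10.1%). Markers of other cells differed too. The endoderm and hepatic markers summed to 1176 to 2116 CPM in AM ZNF711 against 336 to 1170 in AM TRAC, without overlap, and to 9701 to 26201 in VM ZNF711 against 3165 to 25010 in VM TRAC, with overlap. The 6 pluripotency markers summed to 307 to 393 CPM in VM ZNF711 against 107 to 231 in VM TRAC, without overlap, and to 128 to 174 in AM ZNF711 against 126 to 147 in AM TRAC. None of these markers was at 0 in VM ZNF711, and NANOG was at 0 in AM ZNF711. No single gene of either list was called in AM ZNF711 or VM ZNF711 against TRAC (edgeR). With the replicate block 1 of each of these 2 lists was called higher in VM ZNF711, where 2.27% of all genes were called. Among the lists of other cell types, 1 of 5 neural markers tested was called higher in VM ZNF711 without the block, and 2 with it. The block also called 1 of 10 fibroblast markers higher and 2 of 7 smooth muscle markers lower there. The part of these cells in the values of the myosins was not tested. The difference between the conditions, tested as an interaction, was 1.65 (SE 0.50) for MYH6, 1.05 (SE 0.71) for MYH7, 1.77 (SE 0.63) for MYH7B, 1.68 (SE 0.53) for MYL3, 1.16 (SE 0.37) for MYL4 and 1.27 (SE 0.47) for MYL7, none called (edgeR adjusted p from 0.522), with 0.00564% of all genes called. No member passed in the LHX2 or ZNF503 interaction either (0% of all genes in both), and the largest estimate outside MYL2 was −1.88 for MYH7 with ZNF503 (SE 0.73, edgeR adjusted p 1). At an unadjusted p below 0.05, 5 members passed in the ZNF711 interaction (6.4% of all genes did), 1 in that of ZNF503 (1.95%) and 0 in that of LHX2 (3.72%), and DESeq2 called 0 in all 3.

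**Figure D5:**
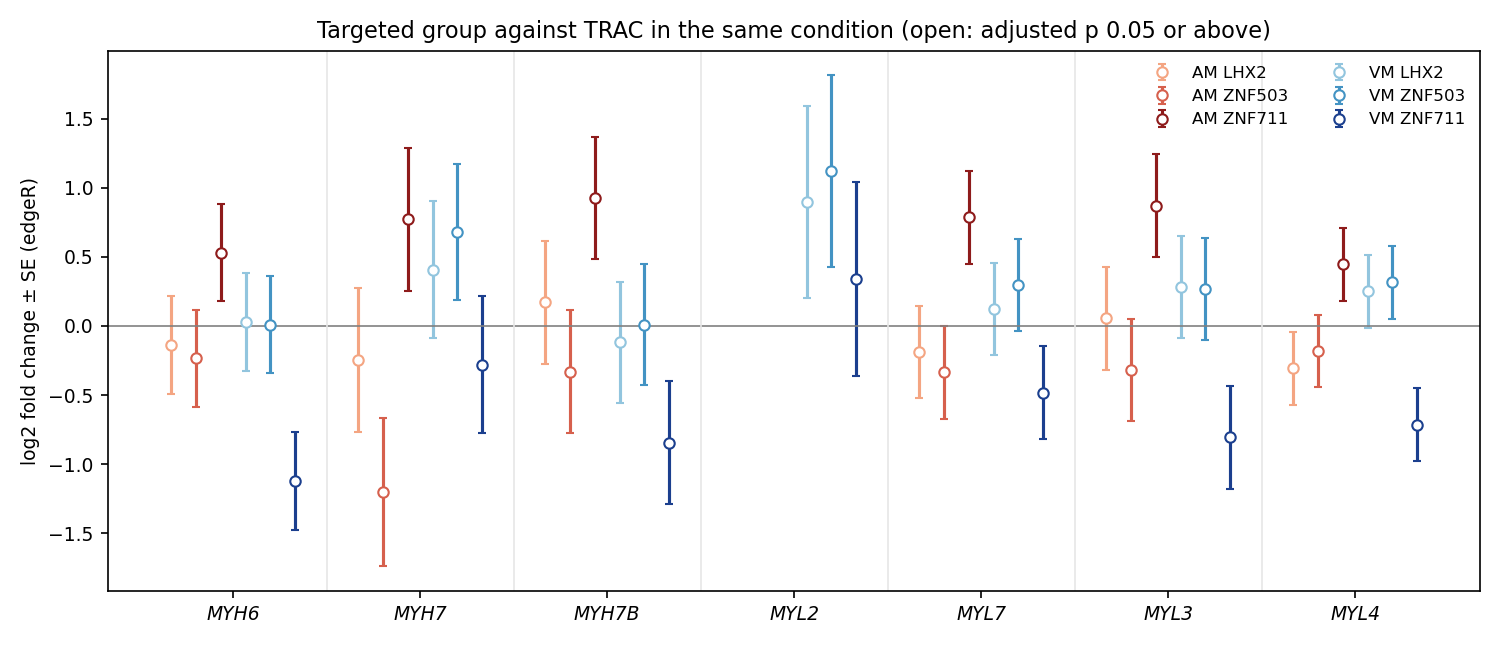
Fitted log2 fold change with its standard error (edgeR) for each targeted group against TRAC of the same condition, AM in red shades and VM in blue shades; all points are open because none has an adjusted p below 0.05, and MYL2 is drawn for VM only. The darkest points, ZNF711, are above 0 in AM and below 0 in VM for the 6 genes other than MYL2.

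These ZNF711 results turned on how the replicate number was treated. With a replicate block within each condition, 5 of the 7 genes passed the ZNF711 interaction: MYH6 (1.60, edgeR adjusted p 0.0237), MYH7B (1.77, 0.0237), MYL3 (1.70, 0.0405), MYL4 (1.13, 0.000775) and MYL7 (1.39, 0.0178), where 2.54% of all genes did. MYH6 (−1.02, 0.0175) and MYL4 (−0.66, 0.00165) were then lower in VM ZNF711 than in VM TRAC, where 8.38% of all genes were called, and none was called in AM ZNF711 (0.53% of all genes). Without the libraries numbered 3 in all groups, MYH6, MYL3 and MYL4 were lower in VM ZNF711 (−1.24, −0.97 and −0.88, edgeR adjusted p 0.00114, 0.0145 and 0.0261; 4.97% of all genes were called). MYH7, MYL3 and MYL7 were then higher in AM ZNF711 (1.86, 1.15 and 1.23, edgeR adjusted p 0.00351, 0.0361 and 0.0193; 0.233% of all genes). In the interaction MYH6, MYH7, MYL3, MYL4 and MYL7 passed, at 1.46 to 2.12 (1.61% of all genes). Leaving out only VM TRAC replicate 3 was enough for MYH6 (−1.44, edgeR adjusted p 0.0257) and MYL4 (−0.96, 0.0416) to be called in VM ZNF711. The reference genes moved the same way, with mean log2 CPM 0.46 higher in AM ZNF711 than in AM TRAC and at −0.64 in VM ZNF711 (exact permutation p 0.1 and 0.2). Relative to them, the differences from TRAC of the members other than MYL2 were −0.01 to 0.58 in AM ZNF711, and in VM ZNF711 they were −0.39 for MYH6, −0.23 for MYH7B, −0.10 for MYL3, −0.01 for MYL4, 0.18 for MYL7 and 0.34 for MYH7 (exact permutation p from 0.1 in AM and from 0.2 in VM).

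No ratio of isoforms passed a test between genotypes. With 3 libraries against 3, the smallest possible exact permutation p is 0.1. MYH6/MYH7 in AM was on average at −0.53 (log2) in ZNF711 and 0.72 in the ZNF503-labelled libraries relative to TRAC, and in VM at −0.31 in LHX2, −0.66 in the ZNF503-labelled libraries and −0.73 in ZNF711 (exact permutation p 0.4, 0.4, 0.4, 0.4 and 0.2). MYL3/MYL4 was separate from TRAC in 1 of 6 comparisons, AM ZNF711, where it was 0.42 higher (0.678, 0.694 and 0.527 against 0.494, 0.429 and 0.486; exact permutation p 0.1). Of 9 tests of whether AM minus VM differed from that in TRAC, none passed; the lowest adjusted p was 0.27 by exact permutation.

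The genes whose levels were most like each member's were named by rank. Likeness was taken as the lower of the Pearson r of log2 CPM in the 12 AM and in the 12 VM libraries, over 11427 genes; it is a description, and the libraries share depth, scaling and replicate number. MYH6 was most like MYO18B (r 0.956 in AM and 0.965 in VM), MYBPC3 (0.956 and 0.984), which encodes cardiac myosin binding protein C, and OSBP2. MYL7 was most like ACTC1 (0.988 and 0.948), the cardiac actin, POPDC2 and HSPB7. MYL4 was most like HSPB7 (0.967 and 0.971), JPH2 and ASB2, and MYL3 most like STYXL2 (0.963 and 0.959), KCNJ5 and MGAT5. MYH7 was most like XIRP1 (0.908 and 0.875), PPM1K and MYL7, and MYH7B most like MYO18A (0.869 and 0.905), RNF207 and MYBPC3. For MYL2 the highest was WDR81 (0.576 and 0.618), and its counts are too sparse for a profile. Among the members, MYL3 and MYL4 were most alike in VM (r 0.985) and MYH6 and MYL3 in AM (0.961).

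The other genes of the thick filament gave a mixed picture in AM TRAC against VM TRAC. Of 20 genes for thick filament assembly and myosin regulation, 18 were tested (median of the list −0.25). In AM, 4 were called higher and 2 lower (edgeR), where 6.18% of all genes were higher and 5.12% lower. Higher were MYOM2, an M-band protein (3.73, SE 0.36, adjusted p 6.98e-08; 34.7 ± 7.87 CPM in AM and 2.63 ± 1.47 in VM), MYBPHL (3.67, 4.29e-05), a myosin binding protein, MYLK (2.33, 0.00103), the smooth muscle light chain kinase, and PPP1R12B, a myosin phosphatase subunit (1.45, 0.000162). Lower were MYLK3, the cardiac light chain kinase that phosphorylates MYL2 (−1.20, SE 0.33, adjusted p 0.0223; 65.5 ± 20.5 CPM in AM and 150.5 ± 51.3 in VM), and SMYD1, a methyltransferase needed for thick filament assembly (−0.98, 0.0116). MYOM2 and MYBPHL were also higher in AM in LHX2 (3.56 and 3.86), in the ZNF503-labelled libraries (3.37 and 3.07) and in ZNF711 (5.25 and 3.77), each called.

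Of 20 other myosin II chains, 12 were tested. In AM TRAC, 3 were called higher and 1 lower (edgeR), where 6.18% of all genes were higher and 5.12% lower. MYH11, the smooth muscle heavy chain, was 296 ± 46.2 CPM in AM TRAC and 3.56 ± 3.21 in VM TRAC (6.28, SE 0.56, adjusted p 5.29e-07), while the 7 smooth muscle markers, MYH11 among them, summed to 938 to 1931 CPM in AM and 675 to 1107 in VM. MYH10, a nonmuscle heavy chain (0.60, 0.00283), and MYL6, an essential light chain of nonmuscle and smooth muscle myosin (0.53, 0.0413), were higher by less. MYH4, a fast skeletal heavy chain, had no count in AM TRAC and 3.75 ± 1.83 CPM in VM TRAC, and was called lower (edgeR adjusted p 0.00193). It passed the filter on low counts through groups other than AM TRAC, so this call restates the counts. The 10 skeletal muscle markers summed to 24.4 to 92.1 CPM in AM and 96.0 to 203 in VM. MYF5, which marks skeletal precursors, was at 0 in all AM libraries, but also in VM TRAC, VM LHX2 and the VM ZNF503-labelled libraries.

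Of 24 listed regulators of chamber myosin genes, all 24 were tested. In AM TRAC, 6 were called higher and 5 lower (edgeR), where 6.18% of all genes were higher and 5.12% lower. NR2F1 (6.62, SE 0.76, adjusted p 1.38e-05), NR2F2 (3.91, SE 0.31, 1.17e-08), both orphan receptors of atrial cells, and HEY1 (1.71, SE 0.27, 0.000105) were the highest, ahead of GATA6 (1.301), TBX5 (1.18) and MEF2C (0.94). IRX4 (−6.22, SE 0.63, adjusted p 1.68e-06) and HEY2 (−4.23, SE 0.44, 4.75e-07), both ventricular factors, and TBX20 (−2.47, SE 0.32, 1.94e-05) were the lowest, followed by NKX2-5 (−0.96) and IRX3 (−0.75). NKX2-5 and NR2F2 carry the reporter alleles in every group. IRX4 and HEY2 were also lower, and NR2F1 and NR2F2 higher, in AM in each of the other 3 genotypes. In ZNF711 the values were −4.11 for IRX4, −2.75 for HEY2, 3.31 for NR2F1 and 2.45 for NR2F2.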

How the data were processed

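The 24 libraries were deposited as 1 table of raw counts per gene, whole numbers that the authors had not normalized. Per the submitters' processing notes, STAR and GRCh38 were used; the versions, the counting program and its strand setting are not given in the sources used here. The labels name both polyA RNA and ribosomal depletion. Every count column matched 1 library by name, and totals ran from 2899786 to 7438010 (median 5113566.5). The 7 genes and all gene lists were chosen with earlier results of these data known.

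Of 62757 genes, 23919 had no count and 17724 passed edgeR's filter. The main test was edgeR's quasi-likelihood test (edgeR 4.0.16, limma 3.58.1, R 4.3.3) on 8 group means with TMM scaling, and p-values were adjusted over all tested genes by Benjamini and Hochberg; a gene was called below 0.05. Levels are CPM with TMM library sizes, per kilobase where genes are compared. Pooled differences used log2 CPM with a prior count of 2 and exact permutation within genotype, ratios used counts plus 0.5, and intervals and the floor of 3 counts cover counting error only (scipy 1.17.1, numpy 2.4.6, pandas 2.3.3, Python 3.11.15). Figures were drawn with matplotlib 3.10.9. The scripts were tested on simulated data. The biological coefficient of variation was 25.0%, and 16.9% with the replicate number as a block.

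The replicate number was checked as a pairing: libraries with the same number deviated from their group means together in 30 of 30 pairs (r from 0.125 to 0.786). The main edgeR fit had no replicate block, because the labels do not say what the numbers stand for. The main permutation tests did not pair by number either. Their p-values thus leave this pairing out, and the block was run as an alternative. Genes named outside the 7 are those of the fixed lists that passed the test, and the 3 most like each member among genes with a mean log2 CPM of at least 3. Alternatives were DESeq2 1.42.0, other scalings and filters, the block, the groups compared alone and leaving out libraries. Promoter and microRNA sequences are from RefSeq (GRCh38.p14); gene models are from GENCODE 29.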

Additional observations from a re-analysis of the deposited data

How the results depend on the processing

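MYH7 kept its direction and its call in each genotype under the alternatives run (edgeR adjusted p at most 0.0434), and the MYH6/MYH7 ratio did so over the 4 genotypes (3.82 to 3.95 on leaving out a replicate number). The cause of the changes below was not tested. With the replicate block the calls over all genes were 3430, 2781, 2642 and 4150 for AM against VM in TRAC, LHX2, ZNF503 and ZNF711, where the fit without it gave 2003, 1517, 1571 and 2345. Against TRAC the block gave 201, 1 and 7 in AM LHX2, ZNF503 and ZNF711, 1 and 402 in VM LHX2 and ZNF711, and 5 in the ZNF711 interaction; it changed no call of the 7 genes other than MYL7 in TRAC. With the block within each condition these were 552, 10, 94, 8, 1485 and 450, with 9 in the LHX2 interaction, and the called members were 4 in AM against VM TRAC, 2 in VM ZNF711 and 5 in the ZNF711 interaction. Without the low-count filter, 97, 16 and 99 genes were called in AM and 136, 4 and 495 in VM for LHX2, ZNF503 and ZNF711, and 40, 3 and 209 in their interactions; members called were 5 and 6 for AM against VM in TRAC and ZNF711, 1 in AM ZNF503, 4 in AM ZNF711, 4 in VM ZNF711, and 1 and 6 in the ZNF503 and ZNF711 interactions. With only the groups compared, 995 genes and 1 member were called in AM against VM TRAC, 5 members in ZNF711, and 167, 3, 17 and 0 genes in AM LHX2, AM ZNF503, AM ZNF711 and VM ZNF711. DESeq2 called 22, 1, 1, 1 and 76 genes in AM LHX2, AM ZNF503, VM LHX2, VM ZNF503 and VM ZNF711 and 10 in the ZNF711 interaction, where a filter at 1 CPM gave 2.

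On leaving out 1 library at a time, the members called in AM against VM ran from 2 to 3 in TRAC, 2 to 5 in LHX2 and 3 to 5 in ZNF503, and from 0 to 2 in VM ZNF711. Over all genes the ranges were 1147 to 1812, 902 to 1272, 1031 to 1274 and 1331 to 2125 for AM against VM in TRAC, LHX2, ZNF503 and ZNF711, 0 to 1 in VM LHX2 and VM ZNF503, 1 to 637 in VM ZNF711 and 1 to 28 in the ZNF711 interaction; the 637 and 28 were without VM TRAC replicate 3. Without replicate 3 in all groups, 5 members were called in AM against VM TRAC, 3 in AM ZNF711, 3 in VM ZNF711 and 5 in the ZNF711 interaction, with 42, 897 and 291 genes in the last 3. For AM against VM, counts over all genes are not given here for this setting, the block within each condition or no low-count filter. Nor are they given for the ZNF711 groups fitted alone, so those member counts cannot be set against a share of all genes. Without 1 replicate number, the differences over 4 genotypes ran from −0.45 to 0.26 for MYH6 and from −1.35 to −0.77 for MYL7, with MYH6 at 0.13 without replicate 1. MYH6 in AM against VM TRAC ran from −0.68 to 0.00376, the latter without VM TRAC replicate 2, and MYL2 in VM ZNF711 against VM TRAC from −0.11, without VM TRAC replicate 1, to 0.98. Scaled to the cardiomyocyte genes, MYH6, MYH7B, MYL3 and MYL4 turned to 0.83, 0.52, 0.13 and 0.49 and MYL7 was at −0.15; with relative log expression MYL3 was called (−0.74, exact permutation adjusted p 0.0482). With Spearman's rho 9 of the 21 most alike genes were shared. Depth limits MYL2 most, with 247 counts in VM and 1 in AM.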
